A study of Trichoderma guizhouense with 100 samples.

Results

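The mitochondrial genes of Trichoderma guizhouense NJAU4742 were taken as the genes whose deposited annotation contains the letters mitochond in any case, which gave 152 of the 11244 genes in the table. All 152 passed the filter on low values described below. They were sorted by the words of their annotation into 24 respiratory chain genes, 29 carriers and transporters, 20 mitochondrial ribosomal proteins, 24 genes of protein import and quality control, 15 of mitochondrial gene expression, 26 of matrix metabolism and cofactor synthesis, 5 of respiratory chain assembly and regulation and 9 others. The rule used words only and no measured value. It takes genes that merely mention mitochondria, such as an acetate transporter described as phosphorylated there, and it misses mitochondrial genes whose annotation does not use the word.

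Polyadenylated RNA of mycelium was sequenced in 100 libraries of 34 groups. They comprised 30 libraries of ∆Tgxyr1 in 10 groups, 21 each of ∆Tgace1 and ∆Tgace2 in 7 groups and 28 of the wild type NJAU4742 (WT) in 10 groups. In the mutants the gene of a transcription factor, TgXyr1, TgACE1 or TgACE2, had been replaced by the hygromycin resistance gene hph. All 4 strains were sampled on glucose at 0 h and at 4, 24 and 72 h after transfer to xylan or to Avicel, a microcrystalline cellulose, and ∆Tgxyr1 and WT also in medium without carbon (carbon starvation, CS). Groups had 3 libraries, or 2 for the 4 h and 72 h groups of WT under CS. The number of independent transformants behind each mutant is not given in the sources used here.

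Mitochondria oxidise pyruvate, fatty acids and amino acids in the tricarboxylic acid (TCA) cycle and pass the electrons along the respiratory chain, whose proton gradient drives ATP synthase. Nearly all of their proteins are encoded in the nucleus, made in the cytosol and imported through the TOM complex of the outer membrane and the TIM complexes of the inner membrane. Carriers of the inner membrane exchange phosphate, nucleotides and organic acids with the cytosol. A separate set of ribosomes translates the few proteins that mitochondrial DNA encodes. When a filamentous fungus leaves glucose for a polymer or for starvation, carbon reaches these organelles by other routes, and in a strict aerobe such as Trichoderma the respiratory chain remains the main source of ATP.

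The table gives RPKM, read density scaled to transcript length and to the mapped reads of the library, and the read depth is unknown because no counts were given. Libraries differed in the sum of RPKM over the table, from 553844 to 3295522, and 1003 to 2173 genes were listed at 0. The activator gene TgXyr1 reached at most 0.168 RPKM in the 30 ∆Tgxyr1 libraries, against 1.29 to 143 RPKM in the 28 WT libraries. TgACE2 reached at most 0.163 RPKM in the 21 ∆Tgace2 libraries, against 1.59 to 8.09 RPKM in WT. TgACE1 was not analysed here, so the labels of ∆Tgace1 were not checked by their target. The correlation of a library with the others of its group had a median of 0.985 over all libraries, and 9 libraries were closest to a library of another group. Among these were WT Avicel 72 h replicate 2, closest to WT under CS at 72 h, and ∆Tgace1 0 h replicate 3, closest to ∆Tgace2 at 0 h. No description below rests on WT on Avicel at 72 h alone, and without ∆Tgace1 0 h replicate 3 the 4-fold counts over the 30 comparisons with 0 h given for single genes changed by at most 1, except where the count without it is given. A list of 14 genes was drawn by conidium and spore words, the regulator names AbaA and WetA, and trehalose in the annotation. Its trehalose genes carry no spore word, so the sum is not one of spore genes only. In WT at 24 h it summed to 885 to 1126 RPKM on Avicel and 1668 to 1736 RPKM under CS. On xylan at 24 h it summed to 3034 to 4326 RPKM, and at 0 h to 4782 to 5598 RPKM. In ∆Tgxyr1 on Avicel at 24 h it summed to 7328 to 13090 RPKM, and the part of spore formation in the results was not tested. RPKM is a share of each library, so a lower value cannot be told apart from a rise of other transcripts, and in mycelium fewer active hyphae cannot be told apart from less RNA in each.

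The mitochondrial genes were expressed well above the typical gene. The median of their mean RPKM over the 100 libraries was 103.1, against 10.03 over the whole table. The respiratory chain had the highest class median at 495.2 RPKM with members between 86.6 and 2183 RPKM. Import followed at 118.2 RPKM, metabolism at 97.1 RPKM, carriers at 66.5 RPKM and mitochondrial ribosomal proteins at 60.9 RPKM, and the gene expression class was lowest at 17.6 RPKM. The most abundant member of all was the ATPase inhibitor gene OPB39009, with a mean of 10582 RPKM. Summed, the 152 genes took 4.87 to 5.29% of all RPKM in the glucose 0 h libraries of ∆Tgxyr1, 4.76 to 7.49% in those of ∆Tgace1, 4.43 to 6.15% in those of ∆Tgace2 and 3.50 to 3.84% in those of WT. In the other 30 groups the share of a library lay between 1.79 and 3.85%, so that every mutant 0 h library had a larger share than any library after transfer.

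After transfer from glucose the mitochondrial genes were lower on balance in each of the 30 comparisons with the 0 h libraries of the same strain. Their median log2 difference on the log2(RPKM + 1) scale lay between -1.55 and -0.28, while the median of all 10026 genes tested lay between -0.05 and 0.06. Calls came from limma with Benjamini-Hochberg adjustment. A gene counted as called at 4-fold with an adjusted p up to 0.01, a log2 difference of 2 or more in either direction and more than 2 RPKM on average in the higher of the compared groups, and as called at 2-fold with the log2 limit lowered to 1. In WT on xylan at 24 h, 9 of the 152 were called lower and 3 higher at 4-fold, against 3.14% and 4.58% of all genes tested. At 2-fold the counts were 41 lower and 15 higher, against 10.6% and 12.8% of all genes, which is a share of 27% and 9.87% of the members. On Avicel at 24 h 13 fell and 2 rose at 4-fold, against 7.05% and 6.88% of all genes, and 58 fell and 6 rose at 2-fold, against 17.2% and 17.4%. Under CS at 24 h 11 fell and 4 rose at 4-fold, against 6.36% and 5.97%, and 52 fell and 10 rose at 2-fold, against 16% and 15.6%. At 4-fold the members' share of falls on Avicel and under CS was thus close to that of all genes, whereas at 2-fold it was more than that of all genes in all 3 media. The comparisons of a strain share its 0 h libraries and are not independent of each other. Many genes below were chosen partly because their libraries did not overlap in a comparison at 24 h. In those comparisons the lack of overlap was required by the choice and adds no evidence.

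The 152 genes and 30 comparisons give 4560 pairs, of which 9.08% were called lower and 3.62% higher at 4-fold, against 5.13% and 6.86% of the pairs of all genes tested, and 33.9% and 8.03% at 2-fold, against 14.7% and 15.7%. In all, 89 of the 152 genes were called at 4-fold at least once, 70 of them lower and 26 higher at least once. These are 58.6%, 46.1% and 17.1% of the members, against 49.3%, 24.2% and 30.5% of all genes tested. The classes differed in how far they fell. Import had class medians between -2.10 and -0.30 on the log2 scale, with 18 of 24 genes called lower and 1 called higher in at least 1 comparison. Carriers divided, with 13 of 29 called lower and 9 called higher at least once and a class median from -1.36 to 0.54. Among the respiratory chain genes 7 of 24 were called lower and 2 higher, among metabolism genes 17 and 7 of 26, and among mitochondrial ribosomal proteins 2 and 1 of 20. The most extensive fall was that of ∆Tgace1 on xylan at 72 h, where 45 members were called lower and 0 higher at 4-fold, against 8.57% and 5.97% of all genes, and where 107 of the 152 were lower at 2-fold, against 19.1% of all genes. Without ∆Tgace1 0 h replicate 3, 42 members were called lower at 4-fold, 38 of them among the 45, and 101 at 2-fold. With all libraries 7 members were higher at an unadjusted p under 0.05 in limma.

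**Figure D1:**
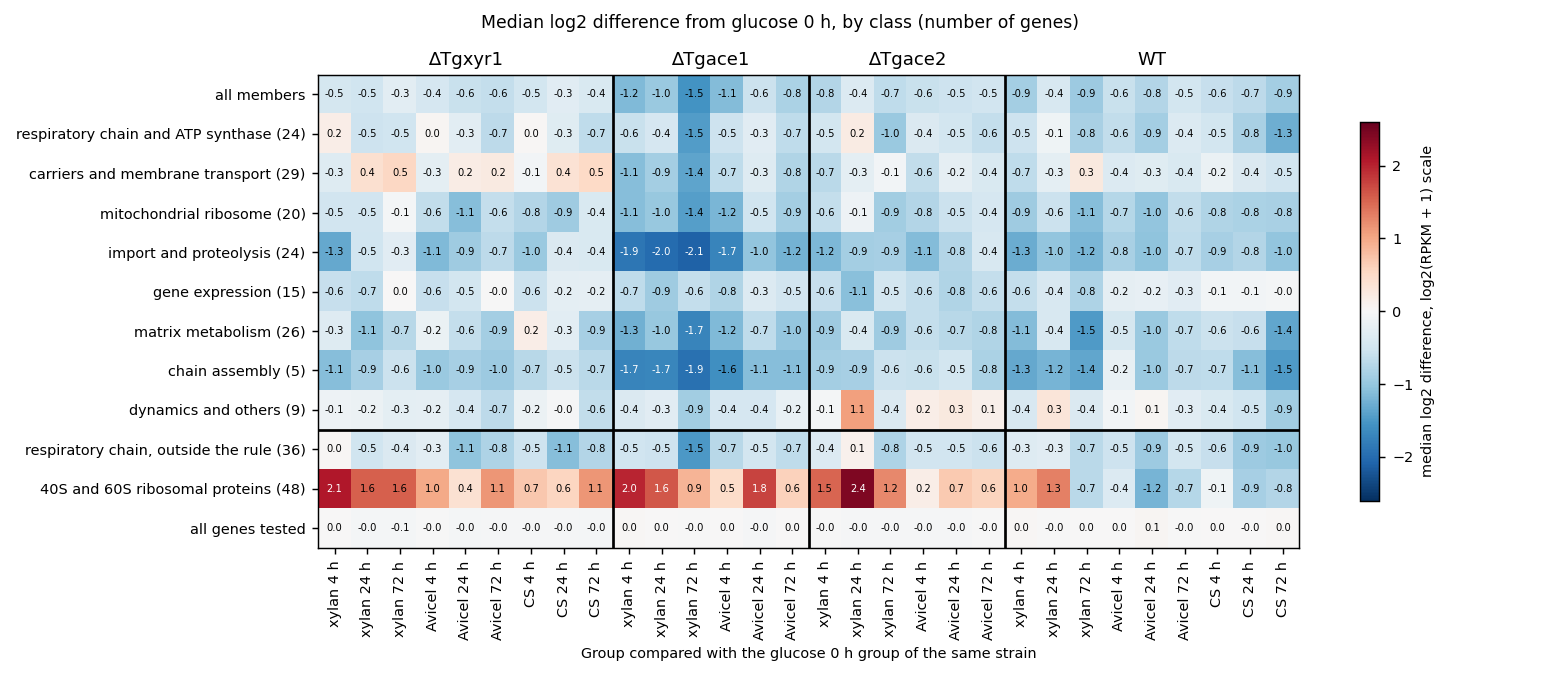
Median log2 difference from 0 h of the same strain on the log2(RPKM + 1) scale, as colour and printed value, for the member classes, other gene lists and all genes tested (rows) in the 30 groups after transfer (columns, by strain). The medians of all genes lie between -0.05 and 0.06, while those of the import class lie between -2.10 and -0.30 and those of the carriers between -1.36 and 0.54.

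The 24 respiratory chain genes held 8 subunits of NADH-ubiquinone oxidoreductase (complex I), which takes electrons from NADH, and an acyl carrier protein annotated to the same complex. The others were a further NADH dehydrogenase, 2 subunits of succinate dehydrogenase (complex II), 2 of the cytochrome bc1 complex (complex III), 2 of cytochrome c oxidase (complex IV) and 8 of ATP synthase (complex V). Of these genes 9 were called at 4-fold in at least 1 comparison with 0 h, against 49.3% of all genes tested. In WT at 24 h 2 of 24 fell at 2-fold on xylan, 11 on Avicel and 11 under CS. These are 8.33%, 45.8% and 45.8% of the class, against 10.6%, 17.2% and 16% of all genes. At 4-fold 1, 1 and 2 fell, against 3.14%, 7.05% and 6.36%. The class medians were -0.12, -0.89 and -0.84. Another 36 genes with respiratory chain words but without the letters mitochond had medians of -0.30, -0.94 and -0.95 in the same comparisons, with 7, 14 and 14 lower at 2-fold.

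Within complex V, ATP synthase subunit 9 (OPB36738), which forms the turning ring in the membrane, behaved unlike the catalytic subunits. At 24 h in WT its values were 224, 440.2 and 159.9 RPKM on xylan, 80.8, 80.9 and 42.2 RPKM on Avicel and 142, 145 and 140.2 RPKM under CS, against 1656, 1715 and 1133 RPKM at 0 h. No library after transfer reached the 0 h range. The log2 differences (± SE) were -2.55 ± 0.61, adjusted p = 0.00037 on xylan, -4.48 ± 0.61, adjusted p = 3e-09 on Avicel and -3.36 ± 0.61, adjusted p = 3e-06 under CS. The gene was called lower at 4-fold in 30 of the 30 comparisons with 0 h, or 29 without ∆Tgace1 0 h replicate 3, and no other member was called in all of them. In ∆Tgace1 on xylan at 24 h it measured 13.8, 108 and 10.5 RPKM, against 616, 614 and 4242 RPKM at 0 h, with 0 h replicate 3 far above the other replicates, and the difference was -5.47 ± 0.61, adjusted p = 9.4e-12. On Avicel at 24 h in ∆Tgace1 the difference of -2.66 ± 0.61 lost its 4-fold call without ∆Tgace1 0 h replicate 3, with values from -3.32 to -1.74 when each library was left out in turn. Neither ∆Tgace1 difference at 24 h was called in a fit of the compared groups alone. The beta subunit (OPB41668), which holds the catalytic sites, measured 1271, 1280.0 and 1405 RPKM on xylan, 809.7, 740.0 and 824 RPKM on Avicel and 855, 893 and 906 RPKM under CS at 24 h, against 1506, 1509.6 and 1187 RPKM at 0 h in WT. It was called lower in 8 of 30 comparisons at 2-fold and in 0 at 4-fold, and the alpha subunit (OPB46749) in 7 and 0.

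The 8 complex I subunits had few calls. OPB44575 and OPB42488 were called in none of the 30 comparisons with 0 h at 2-fold, and the other 6 were lower at 2-fold in 2 to 4 of them. At 24 h on Avicel in WT OPB42488 measured 108, 95.1 and 111 RPKM, against 121, 126 and 97 RPKM at 0 h. The acyl carrier protein gene (OPB44574) was different, with a 2-fold fall in 22 and a 4-fold fall in 7 of the 30 comparisons. The NADH dehydrogenase gene OPB39885, annotated as a mitochondrial NADH dehydrogenase without the name of that complex, moved in opposite directions with the medium. In WT at 24 h it measured 739.7, 788 and 716 RPKM on xylan, 64.8, 73.7 and 62.5 RPKM on Avicel and 62.5, 60.8 and 60.8 RPKM under CS, against 250.3, 272 and 237 RPKM at 0 h. The xylan libraries lay above all 0 h libraries and the Avicel and CS libraries below them. The differences from 0 h were 1.56 ± 0.46, adjusted p = 0.0038 on xylan, -1.90 ± 0.46, adjusted p = 0.00029 on Avicel and -2.02 ± 0.46, adjusted p = 0.00014 under CS, and the CS value lost its 4-fold call without WT 0 h replicate 2 (range -2.07 to -1.97). Avicel against xylan at 24 h gave -3.46 ± 0.46, adjusted p = 2e-09.

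Succinate dehydrogenase rose instead of falling in several groups. Its iron-sulfur subunit (OPB41448), which relays electrons from succinate to ubiquinone, measured 2081, 2180.4 and 1693 RPKM on xylan in WT at 72 h, against 362, 354 and 317 RPKM at 0 h, a difference of 2.52 ± 0.17, adjusted p = 1.6e-21. In ∆Tgxyr1 at 24 h it was at 1455, 1498 and 1159 RPKM on xylan, 1649, 1316 and 1879 RPKM on Avicel and 1454, 1667 and 1316 RPKM under CS, against 197, 132 and 176 RPKM at 0 h. All of these libraries lay above every 0 h library of the strain, with differences of 3.03 ± 0.17, 3.26 ± 0.17 and 3.14 ± 0.17. In ∆Tgace1 on xylan at 72 h the gene was at 169, 162 and 164 RPKM, far below WT at the same time, and ∆Tgace1 against WT gave -3.57 ± 0.17, adjusted p = 1.3e-29. The flavoprotein subunit (OPB39015), which binds succinate, was called at 4-fold against 0 h in 0 comparisons, and at 2-fold higher in 5 and lower in 2. On xylan at 72 h it measured 114, 96.1 and 101 RPKM in ∆Tgace1 and 203, 207 and 195 RPKM in ∆Tgace2, against 918, 946 and 791 RPKM in WT. The differences from WT were -3.08 ± 0.16 and -2.12 ± 0.16. The Rieske protein of complex III (OPB46999) measured 335, 251 and 286 RPKM in ∆Tgace1, against 2865, 2422 and 2191 RPKM in WT, also on xylan at 72 h (-3.10 ± 0.22, adjusted p = 1.9e-20).

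**Figure D2:**
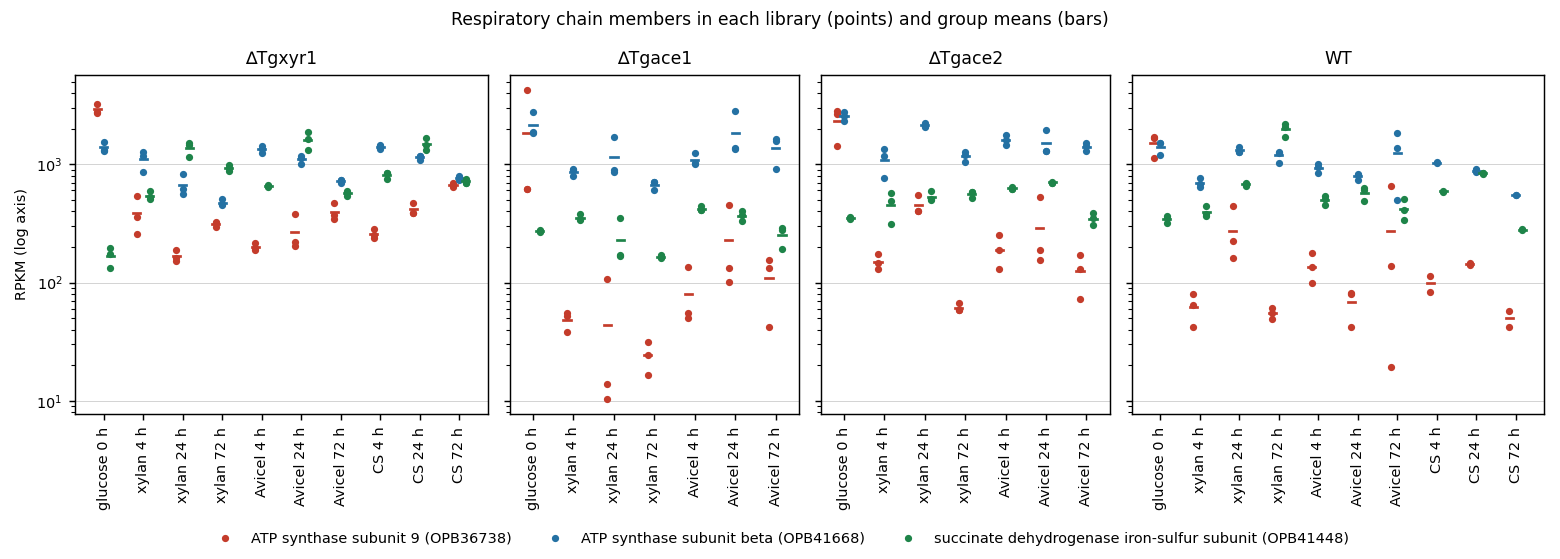
RPKM on a log axis of ATP synthase subunit 9 (OPB36738), ATP synthase subunit beta (OPB41668) and the succinate dehydrogenase iron-sulfur subunit (OPB41448) in each library (points) with group means (bars), in panels for ∆Tgxyr1, ∆Tgace1, ∆Tgace2 and WT. In WT subunit 9 lies at 140.2 to 145 RPKM under CS at 24 h and at 1133 to 1715 RPKM at 0 h, and the iron-sulfur subunit at 1693 to 2180.4 RPKM on xylan at 72 h and at 317 to 362 RPKM at 0 h.

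Several carriers rose after transfer. The 2-oxoglutarate/malate carrier gene OPB36561 encodes an exchanger of TCA cycle acids across the inner membrane. In WT it measured 84.7, 68.8 and 89 RPKM on xylan, 218, 213 and 199.9 RPKM on Avicel and 315, 312 and 299 RPKM under CS at 24 h, against 5.67, 7.83 and 8.42 RPKM at 0 h. Every library at 24 h was above every 0 h library, by 3.31 ± 0.47, adjusted p = 2.3e-08 on xylan, 4.69 ± 0.47, adjusted p = 2.4e-13 on Avicel and 5.24 ± 0.47, adjusted p = 4.7e-15 under CS. On xylan at 72 h it reached 605, 549 and 666 RPKM. It was called higher at 4-fold in 28 of the 30 comparisons (26 without ∆Tgace1 0 h replicate 3), and the exceptions were both in ∆Tgace1. There it measured 18.7, 197 and 185 RPKM on Avicel at 24 h and 141, 108 and 133 RPKM on xylan at 72 h, against 58.9, 65.8 and 8.85 RPKM at 0 h, where replicate 3 was close to the WT values and the other replicates were not.

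The succinate/fumarate antiporter gene OPB39043, whose yeast counterpart brings succinate from the glyoxylate cycle into mitochondria, rose most under CS in WT. It measured 119, 119 and 107 RPKM under CS at 24 h, against 3.83, 5.44 and 6.52 RPKM at 0 h, a difference of 4.23 ± 0.37, adjusted p = 1.2e-15. On xylan and Avicel at 24 h WT had 17.5, 13.5 and 17.1 RPKM and 23.1, 18.7 and 12.6 RPKM, all above 0 h but far below CS. In ∆Tgxyr1 it reached 145, 135 and 109.6 RPKM on xylan and 215, 259 and 222 RPKM on Avicel at 24 h, higher than WT by 2.94 ± 0.37, adjusted p = 2.7e-10 and by 3.64 ± 0.37, adjusted p = 2.2e-13. In ∆Tgace2 on xylan at 24 h it was at 3.72, 2.34 and 2.11 RPKM, below WT with a difference of -2.21 ± 0.37, adjusted p = 2.1e-06. The gene was called higher than at 0 h in 18 of 30 comparisons. The carrier gene OPB42033 is annotated as LEU5, known in yeast for bringing coenzyme A into mitochondria, and was called higher in 16 of 30. On xylan at 24 h it measured 468, 497 and 345 RPKM in ∆Tgxyr1, against 47.9, 37.3 and 54.6 RPKM in WT (3.20 ± 0.29, adjusted p = 3.5e-15), and on Avicel 675, 499.5 and 784 RPKM against 145, 129.7 and 81.2 RPKM (2.47 ± 0.29, adjusted p = 4.1e-11). No ∆Tgxyr1 library overlapped with WT in either medium. The oxoglutarate/oxoadipate transporter gene OPB36534 rose in WT on Avicel at 24 h to 327, 326 and 272 RPKM, against 60.3, 61.7 and 51 RPKM at 0 h (2.40 ± 0.26, adjusted p = 2.8e-12).

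The phosphate carriers, which bring in the phosphate for ATP synthesis, fell. The form OPB39660, with a mean of 2018 RPKM over all libraries close to the 2183 RPKM of cytochrome c oxidase subunit 4 (OPB40991), measured 1151, 1448 and 1482 RPKM on xylan and 1025, 1105 and 903 RPKM on Avicel at 24 h in WT, against 2648, 2752 and 2703 RPKM at 0 h. The other form OPB37040 measured 169.8, 191 and 186 RPKM on xylan and 61.6, 71 and 63.3 RPKM on Avicel, against 375, 348 and 267 RPKM. Neither form overlapped with its 0 h libraries, and OPB37040 was lower on Avicel with a difference of -2.31 ± 0.26, adjusted p = 1.7e-11. It was called lower at 4-fold in 22 of the 30 comparisons and OPB39660 in 4. Among carriers with no substrate in their annotation, OPB43236 was called lower in 18, OPB44932 and OPB39637 in 14 each and OPB44192 in 10. By contrast the porin gene OPB37091, the main channel of the outer membrane, was called at 4-fold in none and at 2-fold in 1 of the 30. At 24 h in WT 5 carriers rose and 9 fell at 2-fold on xylan, 4 and 7 on Avicel and 6 and 5 under CS. These are 17.2% and 31% of the carriers on xylan, against 12.8% and 10.6% of all genes. On Avicel they are 13.8% and 24.1%, against 17.4% and 17.2%, and under CS 20.7% and 17.2%, against 15.6% and 16%. The share of falls under CS was thus near that of all genes, and the share of rises on Avicel was below it.

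**Figure D3:**
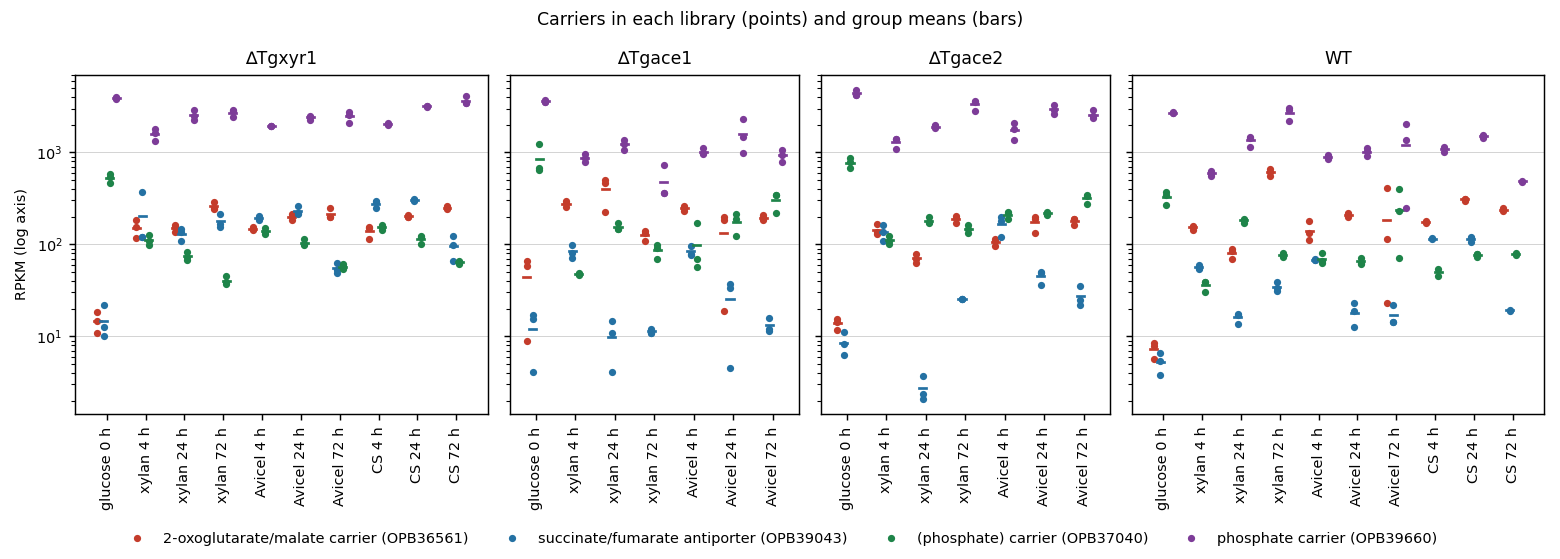
RPKM on a log axis of 4 carriers in each library (points) with group means (bars), in panels for ∆Tgxyr1, ∆Tgace1, ∆Tgace2 and WT. In WT the 2-oxoglutarate/malate carrier (OPB36561) lies at 299 to 315 RPKM under CS at 24 h and at 5.67 to 8.42 RPKM at 0 h, and the phosphate carrier OPB37040 at 61.6 to 71 RPKM on Avicel at 24 h and at 267 to 375 RPKM at 0 h.

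The 20 mitochondrial ribosomal proteins gave 600 pairs of a gene and a comparison with 0 h. Few were called at 4-fold, 4 lower and 4 higher, against 5.13% and 6.86% of the pairs of all genes. At 2-fold 193 calls were lower and 10 higher, against 14.7% and 15.7%. In WT at 24 h limma called none of these proteins at 4-fold in any medium. At 2-fold 5 fell on xylan, 11 on Avicel and 8 under CS, with 1, 0 and 0 rising. The falls are 25%, 55% and 40% of the class, against 10.6%, 17.2% and 16% of all genes. The class medians were -0.56, -1.03 and -0.82. The 48 genes annotated as 40S or 60S ribosomal proteins of the cytosol had medians of 1.32, -1.21 and -0.87 in the same comparisons, so that on xylan the cytosolic list lay above 0 and the mitochondrial list below it. Over all 30 comparisons the median of the mitochondrial class stayed below 0, between -1.44 and -0.05, while that of the cytosolic list ran from -1.21 to 2.43 and was below 0 in 7 comparisons. The difference between the lists was not tested. The list of cytosolic proteins was drawn from words of the annotation as well, and it does not hold every such gene.

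A single mitochondrial ribosomal protein stood apart, the small subunit gene OPB36862 annotated as MRP4. At 24 h it measured 1492, 1319 and 1388 RPKM in ∆Tgxyr1, against 191, 220.2 and 229.6 RPKM in WT on xylan, a difference of 2.71 ± 0.30, adjusted p = 3.1e-12. At 24 h on Avicel it measured 637, 387 and 858 RPKM in ∆Tgxyr1 and 496, 566 and 493 RPKM in ∆Tgace2, against 76.7, 74.2 and 64.2 RPKM in WT. The mutant libraries lay above all WT libraries, by 3.04 ± 0.30, adjusted p = 4.7e-14 in ∆Tgxyr1 and by 2.84 ± 0.30, adjusted p = 1.1e-12 in ∆Tgace2. Under CS at 24 h ∆Tgxyr1 against WT gave 2.06 ± 0.30, a 4-fold call lost without ∆Tgxyr1 CS 24 h replicate 2 (range 1.94 to 2.13). MRP4 was the only gene of the class called higher than at 0 h at 4-fold, in 4 comparisons. The next most abundant member, the small subunit protein gene OPB42406, was called at 4-fold in none, and WT had 246, 288 and 159 RPKM on xylan and 181, 171 and 153 RPKM on Avicel at 24 h, against 291, 299 and 241 RPKM at 0 h.

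Protein import and quality control fell broadly. In WT at 24 h 11 of 24 genes fell at 2-fold on xylan, 10 on Avicel and 9 under CS, with 1, 0 and 0 rising. The falls are 45.8%, 41.7% and 37.5% of the class, against 10.6%, 17.2% and 16% of all genes. The medians were -1.03, -1.05 and -0.76. In ∆Tgace1 on xylan at 72 h 22 of 24 fell at 2-fold and 16 at 4-fold, against 19.1% and 8.57% of all genes. The presequence protease gene OPB37238 degrades the targeting peptides cut from imported proteins and was lower at 2-fold in 30 of 30 comparisons and at 4-fold in 18. In WT at 24 h it measured 26.3, 27.8 and 25.8 RPKM on xylan, 29.9, 29.7 and 29.5 RPKM on Avicel and 32.9, 35.7 and 36.7 RPKM under CS, against 127, 127 and 117 RPKM at 0 h. The spread within each group was small and no library overlapped with 0 h. The differences were -2.17 ± 0.32, adjusted p = 6e-08, -2.02 ± 0.32, adjusted p = 1.8e-07 and -1.79 ± 0.32, adjusted p = 2.8e-06, of which the Avicel value lost its 4-fold call without WT 0 h replicate 1 (range -2.06 to -2.00) and with a pseudocount of 2 (-1.99). The Lon protease gene OPB38256, which removes damaged matrix proteins, was lower at 2-fold in 28 and at 4-fold in 14 of 30.

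The small TIM proteins are chaperones of the space between the membranes, and they fell unequally. TIM13 (OPB39370) was called lower at 4-fold in 21 of 30 comparisons and TIM8 (OPB46615) in 10, against 2 for TIM9 (OPB45149, 4 without ∆Tgace1 0 h replicate 3), 1 for TIM10 (OPB44418) and 0 for the TOM40 channel of the outer membrane (OPB40136). In ∆Tgxyr1 on xylan at 24 h TIM13 measured 29.7, 42.6 and 35.4 RPKM, against 457, 518 and 693 RPKM at 0 h (-3.91 ± 0.50, adjusted p = 3.2e-10). In WT on xylan at 24 h it measured 139, 105 and 74.1 RPKM, against 377, 487 and 332 RPKM at 0 h (-1.93 ± 0.50, adjusted p = 0.0011). The libraries did not overlap in either strain. A translocase gene annotated only as a Tim17 family subunit (OPB37403) was called lower in 15 of 30. The processing peptidase, which cuts the targeting peptide off, was uneven, since its beta subunit OPB44302 was called at 4-fold in none and its other subunit OPB46711 was called lower in 8. The beta subunit was also the most abundant gene of the class, at 692, 739 and 757 RPKM on xylan and 283, 259.8 and 268 RPKM on Avicel at 24 h in WT, against 637, 648 and 551 RPKM at 0 h.

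The only gene of this class called higher than at 0 h at 4-fold was OPB43956, annotated as the sorting protein Msf1, in 9 of 30 comparisons. Its WT 0 h libraries differed among themselves at 128, 129 and 414 RPKM. On xylan at 24 h it measured 507, 1455 and 1481 RPKM in ∆Tgxyr1, against 222, 241 and 268 RPKM in WT, and under CS 932, 866 and 978 RPKM against 238, 225 and 208 RPKM. The ∆Tgxyr1 libraries were the higher ones in both media, but both 4-fold calls rested on single libraries. The difference of 2.08 ± 0.52 on xylan lost its call without ∆Tgxyr1 xylan 24 h replicate 2 or ∆Tgxyr1 xylan 24 h replicate 3 (range 1.82 to 2.59), and that of 2.05 ± 0.52 under CS without WT CS 24 h replicate 3 (range 1.99 to 2.09).

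Genes of mitochondrial gene expression had the lowest class median, 17.6 RPKM, though above the 10.03 RPKM of the whole table. In WT at 24 h 5 of 15 fell and 2 rose at 2-fold on xylan, 2 and 1 on Avicel, and 2 and 1 under CS. On xylan these are 33.3% and 13.3% of the class, against 10.6% and 12.8% of all genes. On Avicel and under CS they are 13.3% and 6.67%, against 17.2% and 17.4% on Avicel and 16% and 15.6% under CS. Elongation factor Tu (OPB40088), which brings aminoacyl-tRNA to the ribosome, was the most abundant and measured 343, 356 and 368 RPKM on Avicel at 24 h in WT, against 1086, 1129 and 809 RPKM at 0 h (-1.49 ± 0.36, adjusted p = 0.00029). Elongation factor G (OPB37917), which moves the ribosome along, was not called lower in any of the 30 comparisons and was higher at 2-fold in 12. The helicase gene Suv3 (OPB45556), which takes part in RNA decay, was lower at 4-fold in 9 and initiation factor 2 (OPB36898) in 7, but in 6 and 5 without ∆Tgace1 0 h replicate 3. The gene OPB39733 is annotated as the DNA replication protein YHM2, which in yeast is also known as a carrier of citrate and oxoglutarate. It reached 1830.5, 1752 and 1367 RPKM on xylan in WT at 72 h, against 197, 207 and 468 RPKM at 0 h (2.61 ± 0.24, adjusted p = 2e-15). On xylan at 72 h it measured 141, 134 and 119 RPKM in ∆Tgace1 and 279.9, 251 and 245 RPKM in ∆Tgace2, below WT with a difference of -3.64 ± 0.24, adjusted p = 4.4e-22 in ∆Tgace1 and -2.66 ± 0.24, adjusted p = 1.7e-15.

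Mitochondrial leucyl-tRNA synthetase (OPB40023), which charges tRNA with leucine, was higher in ∆Tgxyr1 and ∆Tgace2 than in WT in several groups. On Avicel at 24 h it measured 460.1, 256 and 529 RPKM in ∆Tgxyr1 and 413, 455 and 372 RPKM in ∆Tgace2, against 58.7, 53.4 and 47.3 RPKM in WT. Under CS at 24 h it measured 307, 370.0 and 292 RPKM in ∆Tgxyr1, against 63.4, 67.6 and 61 RPKM in WT. The differences from WT were 2.88 ± 0.37, adjusted p = 6.2e-10 and 2.94 ± 0.37, adjusted p = 5.8e-10 on Avicel and 2.31 ± 0.37, adjusted p = 3.3e-07 under CS. In WT at 0 h it measured 234, 234 and 188 RPKM, and every one of these mutant libraries lay above those values.

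Matrix metabolism held the most varied genes. Cysteine desulfurase (OPB39499), which supplies the sulfur of iron-sulfur clusters, measured 23.4, 22.5 and 20.4 RPKM on xylan and 65.4, 72.3 and 78.9 RPKM on Avicel at 24 h in WT, against 217, 215 and 207 RPKM at 0 h. The xylan libraries were the lowest and none overlapped with 0 h, with differences of -3.22 ± 0.29, adjusted p = 3.1e-15 and -1.55 ± 0.29, adjusted p = 3.7e-06. It was called lower at 4-fold in 19 of 30 comparisons (17 without ∆Tgace1 0 h replicate 3) and at 2-fold in 29. Frataxin (OPB43183), which takes part in the same assembly, was called lower at 4-fold in 14 and at 2-fold in 27. On xylan at 72 h it measured 10.8, 8.59 and 10.7 RPKM in WT, against 86.8, 79.9 and 64.5 RPKM at 0 h (-2.82 ± 0.33, adjusted p = 1.6e-11). NADP-dependent isocitrate dehydrogenase (OPB43926), a source of NADPH in the matrix, was called lower in 11 of 30.

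The TCA cycle itself did not move as a unit. Fumarase (OPB36008), which hydrates fumarate to malate, rose in WT on xylan at 72 h to 3985, 3739 and 2998 RPKM, against 377, 396 and 316 RPKM at 0 h (3.29 ± 0.17, adjusted p = 6.1e-27). In ∆Tgxyr1 at 24 h it measured 2202, 2607 and 1613 RPKM on xylan, 1968, 1563 and 2407 RPKM on Avicel and 1863, 2079 and 2070.2 RPKM under CS, against 355, 277 and 346 RPKM at 0 h. The rises in ∆Tgxyr1 were 2.69 ± 0.17, 2.59 ± 0.17 and 2.62 ± 0.17 with no overlap. In ∆Tgace1 on xylan at 72 h it was at 295, 223 and 247 RPKM, below WT with a difference of -3.80 ± 0.17, adjusted p = 1.3e-30. Citrate synthase (OPB39734), which opens the cycle, was called higher in no WT comparison with 0 h and measured 434, 436 and 473 RPKM on xylan at 24 h, against 451, 445 and 406 RPKM at 0 h. Under CS at 4 h it measured 1889, 1854 and 1643 RPKM in ∆Tgxyr1, against 371 and 348 RPKM in WT (2.32 ± 0.32, adjusted p = 1.5e-08). The beta subunit of succinyl-CoA ligase (OPB43560) and aconitase (OPB36969), other enzymes of the cycle, were never called higher and were lower at 2-fold in 8 and 5 of 30. Another 7 genes with TCA cycle words outside the rule had medians of 0.63 on xylan and 0.63 on Avicel at 24 h in WT.

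A pair of genes of amino acid synthesis in the matrix had lower levels on Avicel than on xylan at 24 h in WT. Ketol-acid reductoisomerase (OPB44141), of valine and isoleucine synthesis, measured 118, 119 and 125 RPKM on Avicel, against 866, 1366 and 1012 RPKM on xylan at 24 h, and 1259.8, 1290.1 and 1340.5 RPKM at 0 h. Acetylornithine aminotransferase (OPB45683), of arginine synthesis, measured 9.42, 9.62 and 8.45 RPKM on Avicel, against 76.2, 134 and 85.3 RPKM on xylan and 62.8, 62.4 and 62.6 RPKM at 0 h. At 4 h and 72 h on xylan both genes were lower than at 0 h, with differences of -2.18 ± 0.34 and -2.52 ± 0.34 for OPB44141 and -2.32 ± 0.39 and -2.45 ± 0.39 for OPB45683, and under CS at 24 h they measured 181, 192 and 183 RPKM and 10.8, 11.2 and 12.5 RPKM. At 24 h Avicel lay below xylan in all libraries, with differences of -3.13 ± 0.34, adjusted p = 5.3e-12 and -3.25 ± 0.39, adjusted p = 8.8e-11. On Avicel at 24 h OPB44141 measured 2111, 692 and 595 RPKM in ∆Tgace1 and 639, 653 and 1192 RPKM in ∆Tgace2, and OPB45683 363, 73.7 and 57.4 RPKM in ∆Tgace1 and 45.5, 34.8 and 121 RPKM in ∆Tgace2. These mutants lay above WT by 2.97 ± 0.34, adjusted p = 2e-11 and by 2.71 ± 0.34, adjusted p = 4.4e-10 for OPB44141, and by 3.52 ± 0.39, adjusted p = 5.1e-12 and 2.53 ± 0.39, adjusted p = 8.3e-08 for OPB45683. ∆Tgace1 Avicel 24 h replicate 1 was the highest library in both genes, and both calls held without each library in turn. In a fit of the compared groups alone, the ∆Tgace1 call of OPB44141 held and that of OPB45683 did not. ArgJ (OPB37554), also of arginine synthesis, was called lower than at 0 h in 9 of 30 comparisons.

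Peroxiredoxin PRX1 (OPB44636), which reduces peroxides in the matrix, gave the largest strain difference in the class on xylan at 24 h. It measured 54.4, 55.3 and 57.2 RPKM in ∆Tgxyr1, against 1243, 1503 and 1327 RPKM in WT (-4.58 ± 0.40, adjusted p = 6.3e-16). The values on Avicel were 66, 93.4 and 60.1 RPKM in ∆Tgxyr1 and 167, 166 and 216 RPKM in WT (-1.33 ± 0.40, adjusted p = 0.0035). The strains did not overlap in either medium. From 0 h to 24 h on xylan the gene changed by -2.00 in ∆Tgxyr1 and by 1.09 in WT, a difference of -3.09. The strain difference on xylan was larger than that, so part of it was present at 0 h on glucose. On Avicel the change from 0 h was not called as different between these strains. D-lactate dehydrogenase (OPB43638), which oxidises D-lactate to pyruvate, was higher in ∆Tgxyr1 than in WT on Avicel and under CS at 24 h. It measured 392, 384 and 397 RPKM on Avicel and 700.3, 549 and 416 RPKM under CS in ∆Tgxyr1 at 24 h, against 19.2, 22.6 and 9.48 RPKM and 51.8, 51 and 46.7 RPKM in WT. The differences from WT were 4.52 ± 0.71, adjusted p = 1.1e-07 and 3.42 ± 0.71, adjusted p = 4.1e-05. On xylan at 24 h it measured 148, 201 and 261 RPKM in ∆Tgxyr1, against 119, 106 and 217 RPKM in WT, and the strains overlapped with no call (0.50 ± 0.71, adjusted p = 0.59). Earlier the gene was called lower in ∆Tgxyr1, with differences of -3.34 ± 0.71, adjusted p = 0.00011 on Avicel at 4 h, -3.31 ± 0.79, adjusted p = 0.00071 under CS at 4 h and -2.63 ± 0.71, adjusted p = 0.0033 at 0 h. The call under CS was lost without WT CS 4 h replicate 1 or WT CS 4 h replicate 2, and that at 0 h without WT 0 h replicate 3, ∆Tgxyr1 0 h replicate 1 or ∆Tgxyr1 0 h replicate 2. At 0 h it was at 3.4, 2.93 and 4.62 RPKM in ∆Tgxyr1, while WT had 11.5, 11.6 and 145 RPKM with replicate 3 far above the others. In WT under CS it was at 436 and 452 RPKM at 4 h, 51.8, 51 and 46.7 RPKM at 24 h and 2.72 and 1.86 RPKM at 72 h, with the highest values at the first sampling. The 4-fold call of WT on xylan at 24 h, 2.31 ± 0.71, had overlapping libraries and was lost without WT 0 h replicate 1, WT 0 h replicate 2, WT xylan 24 h replicate 1 or WT xylan 24 h replicate 3 (range 1.71 to 3.49), as it was with only the compared groups fitted.

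**Figure D4:**
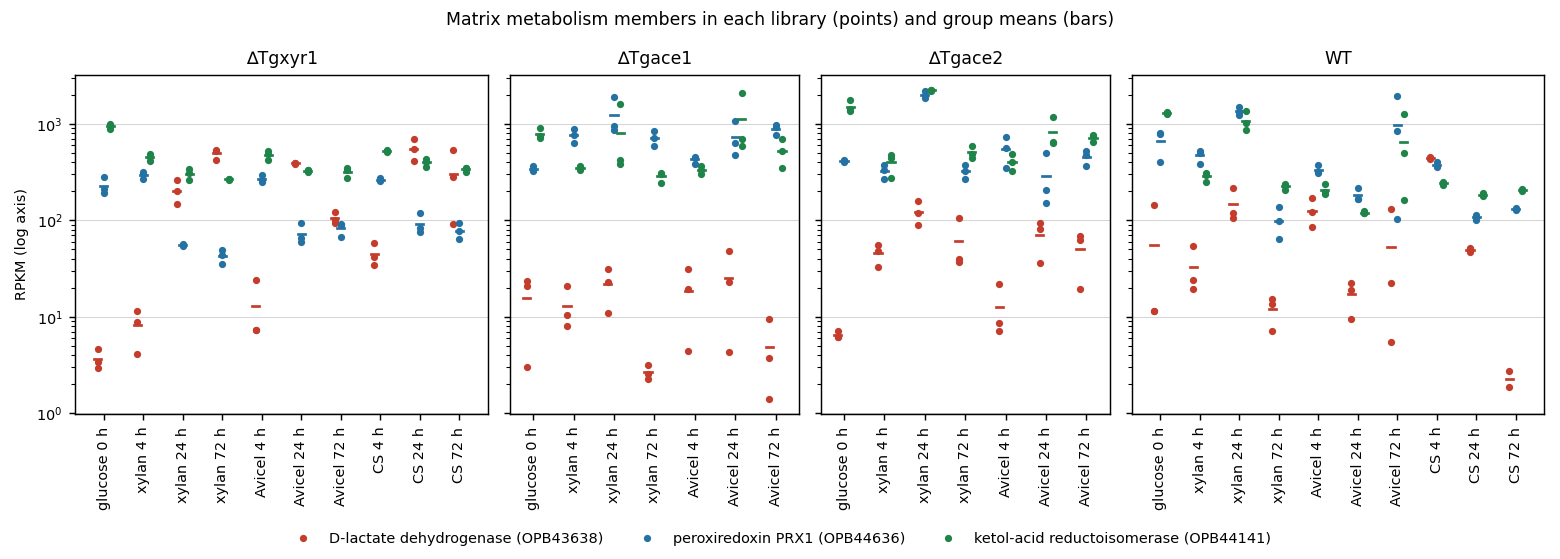
RPKM on a log axis of D-lactate dehydrogenase, peroxiredoxin PRX1 and ketol-acid reductoisomerase in each library (points) with group means (bars), in panels for ∆Tgxyr1, ∆Tgace1, ∆Tgace2 and WT. PRX1 (OPB44636) lies at 54.4 to 57.2 RPKM in ∆Tgxyr1 and at 1243 to 1503 RPKM in WT on xylan at 24 h, and D-lactate dehydrogenase (OPB43638) at 384 to 397 RPKM in ∆Tgxyr1 and at 9.48 to 22.6 RPKM in WT on Avicel at 24 h.

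Of the assembly genes, the ATPase inhibitor (OPB39009), which stops ATP synthase from splitting ATP when the proton gradient fails, showed the widest range. In WT under CS it measured 7037, 7612 and 5473 RPKM at 0 h, 11171 and 12872 RPKM at 4 h, 5896, 6895 and 5839.7 RPKM at 24 h and 555 and 464 RPKM at 72 h. On xylan at 72 h WT had 22609, 17482 and 19237 RPKM. The fall under CS at 72 h was -3.71 ± 0.45, adjusted p = 1.6e-10, and xylan against CS at 72 h gave 5.27 ± 0.45, adjusted p = 3.8e-16. In ∆Tgace1 on xylan at 72 h the gene was at 1790.2, 620.1 and 1428 RPKM, below WT with a difference of -4.07 ± 0.41, adjusted p = 7.8e-14. The COX16 and heme O synthase genes (OPB45337 and OPB44646), needed to build cytochrome c oxidase, were never called higher and were lower at 2-fold in 18 and 19 of 30 comparisons.

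Among the remaining members, the acetate transporter gene OPB44235, which entered by the wording of its annotation, was called higher in 22 of 30, or 19 without ∆Tgace1 0 h replicate 3. Under CS at 24 h it measured 451, 453 and 412 RPKM in WT, against 68.8, 66.8 and 72.8 RPKM at 0 h (2.64 ± 0.29, adjusted p = 5e-12). The fission gene Fis1 (OPB38026), which acts in the division of mitochondria, measured on xylan at 24 h 99.4, 192 and 85.1 RPKM in ∆Tgace1, against 575, 840.4 and 727 RPKM in WT (-2.58 ± 0.28, adjusted p = 3.4e-12). The fusion gene Mgm1 (OPB39929) was called at 4-fold in none of the 30 comparisons with 0 h.

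Avicel was set against xylan within WT at 24 h. Of the 152 genes 7 were lower and 3 higher on Avicel at 4-fold, against 7.78% and 4.66% of all genes, and 33 and 12 at 2-fold, against 17% and 16.6%. The 4-fold calls are 4.61% and 1.97% of the members, less than for all genes. The members' median was -0.37 and that of all genes 0.09. The respiratory chain median was -0.77, with 9 of 24 lower at 2-fold, and that of the mitochondrial ribosomal proteins -0.48, beside -2.50 for the cytosolic list, of which 39 of 48 were lower at 4-fold. Among the genes higher on Avicel were the carrier OPB44932 with 114, 120.1 and 117 RPKM, against 21.4, 31.2 and 18.7 RPKM on xylan (2.28 ± 0.36, adjusted p = 1.8e-07), and the acetoacetyl-CoA thiolase gene OPB38392 with 71.1, 59.3 and 65.2 RPKM, against 6.73, 8.16 and 7.35 RPKM (2.98 ± 0.44, adjusted p = 3.3e-08). At 72 h xylan against CS gave 19 higher and 4 lower members at 4-fold, against 8.56% and 2.15% of all genes, with 2 libraries of CS. At 24 h Avicel against CS gave 0 higher and 2 lower, against 0.229% and 0.18%, and 3 were higher at an unadjusted p under 0.05 in limma.

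At 0 h on glucose the mutants differed from WT in few mitochondrial genes. ∆Tgxyr1 had 0 higher and 2 lower at 4-fold, against 1.16% and 2.62% of all genes, ∆Tgace1 had 1 and 1, against 1.87% and 2.45%, and ∆Tgace2 had 1 and 2, against 1.32% and 1.4%. Without WT 0 h replicate 3 the count called was 1 in ∆Tgxyr1 and 1 in ∆Tgace2, in ∆Tgxyr1 it was also 1 without its own replicate 1 or 2, and in ∆Tgace1 it was 1 without WT replicate 1 or its own replicate 1 or 2. In ∆Tgxyr1 36 members were higher at an unadjusted p under 0.05 in limma. The comparisons of several mutants with WT share the WT libraries of the same medium and time. The carrier gene OPB37373, annotated as the thiamine-repressible THI74, was called lower at 4-fold in 10 comparisons of a mutant with WT and higher in 0. At 0 h it was lower in each mutant. It measured 36.3, 35.6 and 36.7 RPKM in ∆Tgxyr1, 38.6, 35.1 and 23.7 RPKM in ∆Tgace1 and 36, 38.8 and 73.4 RPKM in ∆Tgace2, against 197, 204 and 259.5 RPKM in WT. No mutant library reached the WT range, with differences of -2.56 ± 0.26, adjusted p = 1.8e-12, -2.74 ± 0.26, adjusted p = 1.6e-13 and -2.20 ± 0.26, adjusted p = 4.7e-10. In ∆Tgace1 it was lower on xylan at 24 h too, at 24.2, 17.6 and 21.7 RPKM, against 91.8, 106 and 91.4 RPKM in WT (-2.14 ± 0.26, adjusted p = 1.4e-10), with a value of -1.99 under array weights that missed the 4-fold limit.

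At 24 h ∆Tgxyr1 had more mitochondrial genes called above WT than below it. On xylan 8 were higher and 4 lower at 4-fold, against 7.49% and 5.59% of all genes. On Avicel the counts were 9 and 1, against 8.5% and 4.79%, and under CS 7 and 0, against 5.64% and 2.65%. The members higher at 4-fold were 5.26%, 5.92% and 4.61% of the list, less than for all genes in each medium, and 16 were lower under CS at an unadjusted p under 0.05 in limma. At 2-fold 42 members were higher on Avicel, against 18.7% of all genes, and 38 under CS, against 16.2%, which are 27.6% and 25% of the members. The members' medians were 0.22 on xylan, 0.40 on Avicel and 0.49 under CS, beside 0.00, -0.04 and 0.00 for all genes.

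At 72 h on xylan the mitochondrial ribosomal proteins and the import class of ∆Tgxyr1 had medians above WT. In all 16 members were higher and 2 lower at 4-fold, against 5.39% and 6.51% of all genes. Among them were 6 of 20 mitochondrial ribosomal proteins, with 14 higher at 2-fold and a median of 1.61, and 3 of 24 import genes with a median of 1.17. The cytosolic 40S and 60S list had 33 of 48 higher at 4-fold and a median of 2.37, so both lists lay in the same direction here. Under CS at 72 h 18 members were higher and 0 lower, against 5.44% and 3.61%, with 8 of 29 carriers among them and 7 lower at an unadjusted p under 0.05. The phosphate carrier OPB39660 measured 3405, 3442 and 4089 RPKM in ∆Tgxyr1, against 486 and 480.4 RPKM in WT (2.91 ± 0.32, adjusted p = 8.3e-12), and ATP synthase subunit 9 (OPB36738) 671, 640.0 and 700.3 RPKM against 57.4 and 42 RPKM (3.74 ± 0.68, adjusted p = 5.2e-06). The strains did not overlap in either gene.

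In ∆Tgace1 the members lay on balance below WT on xylan and above it on Avicel at 24 h, and the difference between the media was not tested. On xylan at 24 h 1 member was higher and 4 lower than in WT at 4-fold, against 4.42% and 5.96% of all genes, with 6 and 26 at 2-fold, against 15.1% and 15.2%. On Avicel at 24 h 3 were higher and 1 lower, against 4.16% and 3.83%, with 31 and 7 at 2-fold, against 10.6% and 11%. The members' medians were -0.23 on xylan and 0.61 on Avicel, beside 0.14 and 0.00 for all genes. On xylan at 72 h 22 members were lower and 1 higher, against 9.35% and 3.3%, among them 9 of 29 carriers and 3 of 24 respiratory chain genes. The cytosolic ribosomal list lay the other way there, with 21 of 48 higher at 4-fold and a median of 1.75, beside a median of 0.11 for the mitochondrial ribosomal proteins. The 2-oxoglutarate/malate carrier (OPB36561) was the gene higher on xylan at 24 h, at 469.6, 226 and 504 RPKM in ∆Tgace1, against 84.7, 68.8 and 89 RPKM in WT (2.21 ± 0.47, adjusted p = 6.1e-05). That difference was 1.93 and missed the 4-fold limit after median scaling. At 0 h ∆Tgace1 replicates 1 and 2 already lay far above every WT library, while replicate 3 lay close to them. The change of this gene from 0 h to 24 h on xylan was not called as different between the strains. The 4 calls of ∆Tgace1 on Avicel fell to 2 without WT Avicel 24 h replicate 2 and to 2 without ∆Tgace1 Avicel 24 h replicate 1, and to 1 with only the compared groups fitted. ∆Tgace1 Avicel 24 h replicate 1 and ∆Tgace1 xylan 24 h replicate 2 were among the libraries closest to one of another group.

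In ∆Tgace2 the mitochondrial genes were on balance above WT on Avicel at 24 h. There 7 members were higher and 0 lower at 4-fold, against 7.52% and 3.44% of all genes, and 48 and 5 at 2-fold, against 17% and 12.9%. The members' median was 0.71, beside -0.00 for all genes, with 0.90 for the respiratory chain and 0.81 for the mitochondrial ribosomal proteins. The cytosolic ribosomal list moved further, with a median of 1.99 and 21 of 48 higher at 4-fold. The respiratory chain gene called at 4-fold was the NADH dehydrogenase OPB39885, with 403, 410.4 and 559.8 RPKM in ∆Tgace2, against 64.8, 73.7 and 62.5 RPKM in WT (2.74 ± 0.46, adjusted p = 7.2e-07). On xylan at 24 h 0 were higher and 1 lower, against 1.48% and 1.73%, and the lower gene was the succinate/fumarate antiporter OPB39043, whose difference was -1.94 and not called with a pseudocount of 2. At 2-fold 15 were higher there, against 6.92% of all genes, and on Avicel 16 were lower at an unadjusted p under 0.05 in limma.

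**Figure D5:**
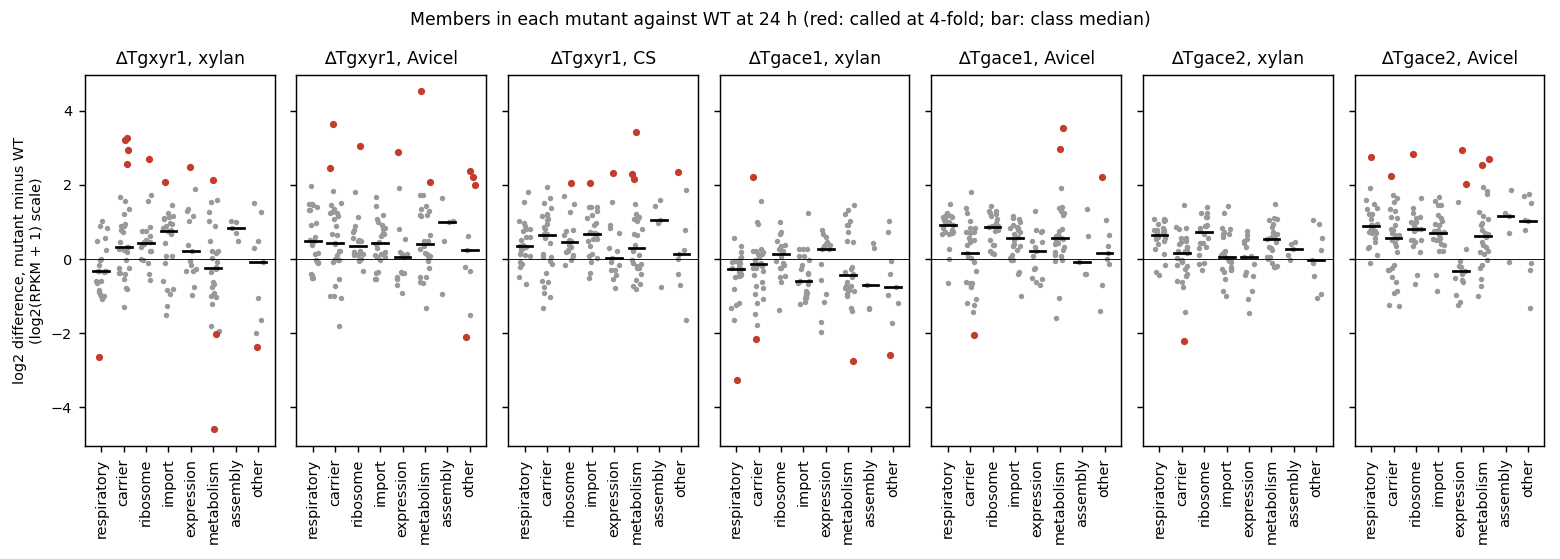
Log2 difference of each mutant from WT at 24 h for the members by class (points, red where called at 4-fold) with class medians (bars), on the log2(RPKM + 1) scale. The members' median is 0.71 in ∆Tgace2 and 0.61 in ∆Tgace1 on Avicel, and -0.23 in ∆Tgace1 on xylan.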

How the data were processed

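The deposited table holds RPKM per gene and library, made by the authors, who filtered the reads with the FASTX-Toolkit, aligned them with TopHat2 and estimated and normalised abundance with Cufflinks and Cuffnorm (versions not given in the sources used here; the methods name the unit FPKM). No read counts were given, so depth is unknown, and normalisation over all genes makes each value relative to the other transcripts. Columns were matched to the labels by name.

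Values were analysed as log2(RPKM + 1), a scale that understates the changes of low genes, with limma 3.58.1 (trended variance) in R 4.3.3, with 1 mean for each of the 34 groups and 66 residual degrees of freedom. Genes above 1 RPKM in at least 2 libraries were tested, 10026 of 11244, and p-values were adjusted by Benjamini-Hochberg over all of them within each comparison. Responses of mutants and WT were compared by an interaction contrast of the same fit. The libraries of a group are separate samples by their labels, and the authors call the repeats of each sampling point biological. Where libraries share a culture the p-values measure technical spread. On simulated data for WT on xylan at 24 h, 90.5% of 200 genes changed by a log2 difference of 2.5 were called at 4-fold among 9475 genes, and 5% of those changed by 1.5. The changed genes were drawn only from genes with a mean above a fixed limit. That limit was itself above the median of 13.9 RPKM of the genes tested. Recovery of lower genes was not tested.

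The members and the lists were chosen with earlier results of these data known. Genes were named when they had up to the 2 largest rises or falls of their class at 2-fold, without overlap of libraries, in a comparison at 24 h, when they were among the 2 most abundant of their class, or when they were called at 4-fold in at least 5 comparisons with 0 h or WT. For 1 gene that this rule names no result is given here, though it stays in the counts. OPB36969, OPB39015, OPB40136, OPB41668, OPB42488, OPB43560, OPB44575 and OPB46749 were chosen after their values were seen. Alternatives were pseudocounts of 0.1 and 2, no filter, median scaling, array weights, a fit of the compared groups only, a log2 limit of 1, unadjusted p-values, a replicate block and leaving out each library. The labels name no pairing of libraries between groups. The correlation of same-numbered libraries within 181 pairs had a median of -0.011. It exceeded 0.1 in every pair in 0 of the 55 comparisons with 3 pairs. This correlation cannot show pairing under unlike numbers, so repeated sampling of a culture over time was not tested. The authors describe taking broth at each sampling time, so a culture may have given libraries at several times. The fit treats all libraries as unpaired.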

Additional observations from a re-analysis of the deposited data

Results flagged for a closer look

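The changes of the mitochondrial genes after transfer differed between a mutant and WT for 47 pairs of a named gene and a medium at 24 h. In every mutant and medium the members called were a smaller share of their list than the genes called among all genes tested. The value given is the log2 change from 0 h in the mutant minus that in WT, tested as an interaction in limma with the limits of the 4-fold call, and a positive value means a greater rise or a smaller fall in the mutant. The comparisons of a mutant share its 0 h libraries and those of a medium share the WT libraries. Of the 47 differences 30 kept their call without each library in turn, 17 lost it without at least 1 library and 13 lost it under at least 1 other setting. Explanations were not tested.

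In ∆Tgxyr1 on xylan 8 members had a positive and 2 a negative difference in response, against 12.5% of all genes called. The values were 4.01 for the carrier of unnamed substrate (OPB44108), 3.92 for the LEU5 carrier (OPB42033), 2.79 for Msf1 (OPB43956) and 2.38 for MRP4 (OPB36862). They were also 2.19 for the acetate transporter (OPB44235), 2.17 for the THI74 carrier (OPB37373), 2.06 for the succinate dehydrogenase iron-sulfur subunit (OPB41448) and 3.13 for D-lactate dehydrogenase (OPB43638), and the negative ones -3.09 for peroxiredoxin PRX1 (OPB44636) and -2.55 for a gene annotated as a matrix factor (OPB46877). The value of D-lactate dehydrogenase ran from 1.95 to 3.72 when each library was left out and was not called without any 1 of 8 libraries, among them WT 0 h replicate 3, and Msf1 was not called without WT 0 h replicate 3 (2.23). OPB41448 was not called without ∆Tgxyr1 0 h replicate 2 or ∆Tgxyr1 xylan 24 h replicate 2 (lowest value 1.90).

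In ∆Tgxyr1 on Avicel 11 were positive and 1 negative, against 15% of all genes. D-lactate dehydrogenase (OPB43638) differed by 7.15, leucyl-tRNA synthetase (OPB40023) by 3.52 and the LEU5 carrier (OPB42033) by 3.19. Smaller values were 3.06 for the acetate transporter (OPB44235), 2.72 for MRP4 (OPB36862), 2.71 for the NADH dehydrogenase (OPB39885), 2.53 for the succinate dehydrogenase iron-sulfur subunit (OPB41448), 2.35 for the succinate/fumarate antiporter (OPB39043), 2.04 for the ATPase inhibitor (OPB39009) and 2.02 for the carrier (OPB44108). Of these the ATPase inhibitor was not called without any 1 of WT 0 h replicate 2, WT Avicel 24 h replicate 3, ∆Tgxyr1 0 h replicate 1 or ∆Tgxyr1 Avicel 24 h replicate 3 (range 1.89 to 2.18), and OPB44108 without any 1 of 6 libraries (range 1.79 to 2.33).

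In ∆Tgxyr1 under CS 7 were positive and 0 negative, against 10.2% of all genes, with 52 and 16 at an unadjusted p under 0.05 in limma. Among the values were 6.05 for D-lactate dehydrogenase (OPB43638), 3.19 for the NADH dehydrogenase (OPB39885), 2.95 for leucyl-tRNA synthetase (OPB40023), 2.75 for Msf1 (OPB43956), 2.67 for the LEU5 carrier (OPB42033) and 2.05 for 5-aminolevulinate synthase, the first enzyme of heme synthesis (OPB39353). Msf1 was not called without WT 0 h replicate 3 (2.19), and OPB39353 without any 1 of 9 libraries (range 1.80 to 2.27).

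In ∆Tgace1 on Avicel 6 were positive and 2 negative, against 9.65% of all genes. The values were 3.70 for ketol-acid reductoisomerase (OPB44141), 3.49 for acetylornithine aminotransferase (OPB45683), 2.80 for peroxiredoxin PRX1 (OPB44636), 2.45 for ArgJ (OPB37554) and 2.11 for the acetate transporter (OPB44235), and -3.29 for the 2-oxoglutarate/malate carrier (OPB36561) and -2.19 for acetoacetyl-CoA thiolase (OPB38392). The acetate transporter and the thiolase were not called without ∆Tgace1 0 h replicate 3 or ∆Tgace1 Avicel 24 h replicate 1, and also the transporter without WT Avicel 24 h replicate 2 and the thiolase without WT 0 h replicate 1, WT 0 h replicate 2 or WT Avicel 24 h replicate 1 (ranges 1.49 to 2.46 and -2.85 to -1.03). The 2-oxoglutarate/malate carrier kept its call without each library, with a wide range of -4.18 to -2.19. In a fit of the compared groups alone the transporter, the thiolase and this carrier were not called. On xylan 0 were positive and 3 negative in ∆Tgace1, against 5.38% of all genes, with -2.92 for ATP synthase subunit 9 (OPB36738) and -2.17 for a matrix iron-sulfur protein (OPB37411). Subunit 9 was not called without any 1 of 8 libraries, among them ∆Tgace1 0 h replicate 3 (range -3.94 to -1.99), and OPB37411 without ∆Tgace1 xylan 24 h replicate 1 (-1.78). The 2 genes were not called either in a fit of the compared groups alone. At an unadjusted p under 0.05 limma gave 5 positive and 65 negative members on xylan.

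In ∆Tgace2 on Avicel 11 were positive and 0 negative, against 11% of all genes, with 49 and 20 at an unadjusted p under 0.05 in limma. The values were 3.87 for D-lactate dehydrogenase (OPB43638), 3.06 for leucyl-tRNA synthetase (OPB40023), 2.80 for the NADH dehydrogenase (OPB39885), 2.75 for the acetate transporter (OPB44235), 2.50 for ketol-acid reductoisomerase (OPB44141) and 2.39 for Msf1 (OPB43956). The others were 2.24 for MRP4 (OPB36862), 2.12 for the ATPase inhibitor (OPB39009), 2.11 for acetylornithine aminotransferase (OPB45683), 2.06 for the LEU5 carrier (OPB42033) and 2.06 for the substrate carrier (OPB42027). D-lactate dehydrogenase was not called without WT 0 h replicate 3 (2.69), OPB45683 without ∆Tgace2 Avicel 24 h replicate 3 (1.58), and Msf1, OPB39009, OPB42033 and OPB42027 each without any 1 of 2 to 6 libraries (lowest values 1.83, 1.93, 1.69 and 1.93), WT Avicel 24 h replicate 3 among them in each. On xylan 0 were positive and 1 negative, with 20 and 23 at an unadjusted p under 0.05, and the value was -2.81 for the succinate/fumarate antiporter (OPB39043), against 2.32% of all genes.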

How the results depend on the processing

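Single values were recomputed only for named genes whose difference was already called at 2-fold or 4-fold. None of these changed direction under any alternative run, an outcome that this choice made likely. With a log2 limit of 1 the members called were 56 on xylan (12 at the limit of 2), 64 on Avicel (15) and 62 under CS (15) for WT at 24 h against 0 h, 47 on xylan (12), 47 on Avicel (10) and 41 under CS (7) for ∆Tgxyr1 against WT, 32 on xylan (5) and 38 on Avicel (4) for ∆Tgace1, 20 (1) and 53 (7) for ∆Tgace2, and 45 (10) for Avicel against xylan. With only the libraries of the compared groups fitted, which leaves fewer residual degrees of freedom, 1 member was called for ∆Tgace1 against WT on Avicel, and the differences in response of ∆Tgace1 numbered 1 on xylan (3 in the fit of all groups) and 5 on Avicel (8). Array weights, whose estimation stopped before it converged, gave 8 on xylan there. A pseudocount of 2 left 0 members called for ∆Tgace2 on xylan, and the cause was not tested. These array weights and the other added settings for the differences in response were chosen after seeing the data. The other counts at 24 h stayed within 1.5 times of the values given under every other setting.

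Leaving out each library in turn gave 10 to 14 members for WT on xylan at 24 h, 13 to 16 on Avicel, 13 to 15 under CS and 9 to 12 for Avicel against xylan. Against WT the counts were 11 to 14 on xylan, 9 to 11 on Avicel and 6 to 8 under CS for ∆Tgxyr1, 4 to 7 on xylan and 2 to 6 on Avicel for ∆Tgace1, and 1 to 1 on xylan and 6 to 9 on Avicel for ∆Tgace2. The differences in response numbered 8 to 11, 9 to 15 and 6 to 8 for ∆Tgxyr1 on xylan, Avicel and CS, 1 to 4 and 7 to 8 for ∆Tgace1 on xylan and Avicel, and 1 to 2 and 8 to 12 for ∆Tgace2. Of the 795 pairs of a member and a comparison called at 4-fold, 614 kept their call without each library and 181 lost it without at least 1. The counts on Avicel at 72 h varied most, from 4 to 20 for WT Avicel against CS, lowest without WT Avicel 72 h replicate 1 and highest without replicate 2. With the replicate number as a block, the counts at 24 h were 12, 15 and 15 for WT against 0 h and 12, 10 and 7 for ∆Tgxyr1. They were 5 and 4 for ∆Tgace1, 1 and 7 for ∆Tgace2 and 10 for Avicel against xylan. Depth is unknown, so no limit of detection could be given for genes listed at 0.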
